A study of Sus scrofa with 9 samples.

Results

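The lysosome genes of pig blood were followed over 3 sampling times around an oral dose of azide: the cathepsins, other hydrolases, the membrane and sorting proteins of the organelle, and the subunits of its proton pump. Members were taken by the text of the array's probe descriptions, which had to contain cathepsin, lysosom, vacuolar ATP synthase, vacuolar proton, V-ATPase or the name of 1 further hydrolase in any case. The rule found 35 of the 43603 non-control probes, on 39 spots, for 26 genes or descriptions. By role they are 13 cathepsin probes, 4 of other hydrolases, 9 of membrane and sorting proteins and 9 of the proton pump. The accessions of 15 of them matched a RefSeq gene, and the rest are named from the description alone. Since the rule reads words, PRCP (a lysosomal Pro-X carboxypeptidase) and LAPTM5 (a lysosomal membrane protein of blood cells) are in, while lysosomal enzymes described without these words are not.

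A lysosome is an acidic vesicle in which proteins, sugars and lipids are broken down. The proton pump, or V-ATPase, acidifies it by coupling ATP hydrolysis in a peripheral ring (V1) to proton transport through a membrane ring (V0). Cathepsins are its proteases, glycosidases trim sugar chains, and LAMP1 and LAMP2 are heavily glycosylated proteins that line the membrane. In blood, monocytes and neutrophils are rich in lysosomes and related granules, and lymphocytes have fewer.

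The animals were male Clawn miniature pigs, labelled SPF. The labels disagree on their age, with 7 months in the characteristics and 7 weeks in the description. All groups are whole blood kept in PAXgene tubes: before feeding, with no azide yet, and at 6 h and 24 h after 300 µg/kg of azide by mouth. Azide is a poison that inhibits cytochrome c oxidase in mitochondria. Each group has 3 arrays (n = 3), 9 in all. There is no untreated group at the later times, so feeding and time of day cannot be told apart from the dose. The arrays of a group share 1 slide and 1 scan that no other group has, and slide effects cannot be told apart from time either. Nothing says whether equal replicate numbers mark one pig, and p-values measure only the spread between these samples, which may be technical.

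A level below is the log2 processed signal of a probe minus the 75th percentile of its array, and a negative level lies under that percentile. Between 39.9% and 56.6% of spots were well above background, highest on 24 h replicate 3. Within-group correlations over the probes tested below were 0.936 to 0.985. A probe was tested if in some group all 3 arrays read it well above background, and 19783 probes were. Of the members, 27 probes of 21 genes qualified, 23 of these probes on all 9 arrays. CTSO was tested only because all before-feeding arrays read it, and ATP6V0A2 only because all 24 h arrays did. Each passed through the group where it is high and so had to differ, and both stand in the counts below as a description only. For a gene with several tested probes, the probe with the highest mean stands for the gene. Differences are given with limma's standard error (SE), and adjusted p-values are limma's with Benjamini-Hochberg adjustment over the 19783 probes. The comparisons of 6 h and of 24 h with before feeding share the before-feeding arrays, and that of 24 h with 6 h shares arrays with both.

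No member probe passed an adjusted p of 0.05 in any comparison. Over all probes 0.0253% passed at 6 h against before feeding, 0% at 24 h against before feeding and 0% at 24 h against 6 h. At 6 h, 17 of the 21 genes had a higher mean than before feeding and 4 a lower one, with a median difference of 0.43 on the log2 scale against 0.04 over all tested probes. Of all tested probes 52.5% had a higher mean at 6 h. The unadjusted p was under 0.05 for 8 genes (38.1%), 7 higher and 1 lower, and for 25.5% of all probes. All 6 h arrays lay above all before-feeding arrays for 6 genes (28.6%), against 15.9% of all probes, and below them for 1 gene, against 10.7%. The genes with p under 0.05 that were higher were NEU1, LAMP1, LAPTM5, LYST, ATP6V1C1, ATP6V1H and ATP6V0E1, and the lower one was CTSO. Without 6 h replicate 2, 6 of the 27 member probes passed the adjusted threshold, those of LAMP1, LAPTM5, LYST and CTSO and both of ATP6V1C1, and so did 2407 of all 19783 probes (12.2%).

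At 24 h, 15 genes had a higher mean than before feeding and 6 a lower one, with a median of 0.21 against -0.01 over all probes. Of all tested probes 49.0% had a higher mean at 24 h. The unadjusted p was under 0.05 for 4 genes (19.0%), against 13.9% of all probes: CTSK, LAMP1 and LAMP2 were higher and CTSO lower. Groups did not overlap for 4 higher genes (background 7.38%) and 2 lower ones, CTSF and CTSO (background 19%). Between 6 h and 24 h, 15 genes had a lower mean at 24 h and 6 a higher one, with a median of -0.23 against -0.09, a sign that turned under quantile normalization (0.12), with the deposited series-wide values (0.04) and with spike-in centring (0.55). Of all tested probes 43.7% had a higher mean at 24 h than at 6 h. The unadjusted p was under 0.05 for 4 genes (19.0%), against 21.6% of all probes, and groups did not overlap for 1 higher gene, ATP6V0A2 (background 10%), and 2 lower ones (background 16.4%). The members' share at 24 h against 6 h is thus close to the background.

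**Figure D1:**
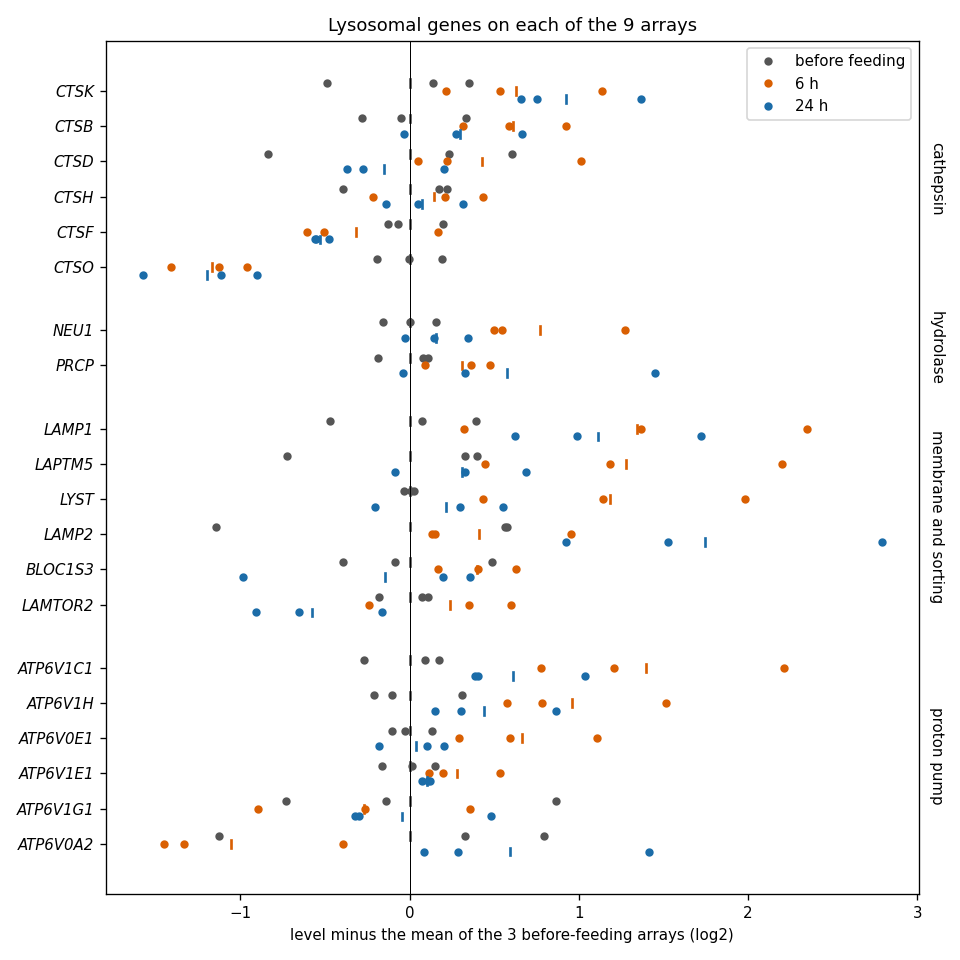
Level of 20 of the 21 tested genes on each of the 9 arrays, as the log2 difference from the mean of its before-feeding arrays, with genes in rows by role. Points are arrays, short bars are group means. The 6 h points of ATP6V1C1, LYST, LAMP1 and LAPTM5 reach past 1.9. The 6 h points of CTSO and ATP6V0A2 were not well above background.

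Among the cathepsins, 6 genes were tested, and 4 had a higher and 2 a lower mean at 6 h. CTSO encodes the cysteine protease cathepsin O. Its levels were -2.40, -2.21 and -2.59 before feeding, -3.53, -3.37 and -3.81 at 6 h, and -3.30, -3.98 and -3.51 at 24 h. Every array after azide was lower than every array before it. The probe was well above background on all 3 before-feeding arrays, on 0 at 6 h and on 1 at 24 h. It was tested only through the group where it is high, so its difference supports nothing, and the level at 6 h is only a bound. With the scanner's own background subtraction CTSO was at least 1.43-fold lower at 6 h, where the floor is, for each array, the dimmest signal of any probe that cleared the background or the probe's own if higher. With normexp background correction the 6 h difference was -0.20 (adjusted p = 0.61).

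CTSK encodes cathepsin K, the collagen-degrading protease known best from osteoclasts. Its levels were -0.37, -0.99 and -0.15 before feeding, 0.03, -0.29 and 0.63 at 6 h, and 0.25, 0.15 and 0.87 at 24 h. All 24 h arrays were above all before-feeding arrays, and the 6 h arrays overlapped both groups. The difference was 0.63 ± 0.35 at 6 h (adjusted p = 0.28) and 0.93 ± 0.35 at 24 h (adjusted p = 0.31). With normexp these were 0.31 and 0.56. In the RefSeq annotation of the pig genome (Sscrofa11.1) CTSK and CTSS are neighbouring protein-coding genes, the only such pair among the members. CTSS, the cathepsin of antigen-presenting cells, was well above background on 3 of 9 arrays and was not tested.

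CTSB encodes cathepsin B, an abundant protease of macrophages. It was measured by a pair of probes to the same RefSeq transcript. On the brighter probe the levels were 5.82, 6.06 and 6.44 before feeding, 6.42, 6.70 and 7.03 at 6 h, and 6.07, 6.38 and 6.77 at 24 h. The highest before-feeding array overlapped the lowest 6 h array by a small margin, and the difference was 0.61 ± 0.30 at 6 h (adjusted p = 0.23). It was 0.19 under quantile normalization and 0.21 with the deposited series-wide values. On the other probe the levels were 1.35, 2.23 and 2.76, then 2.98, 2.35 and 3.66, then 2.77, 3.08 and 3.76. There the 24 h arrays cleared the before-feeding arrays, with 1.09 ± 0.45 at 24 h (adjusted p = 0.33) against 0.30 ± 0.30 (adjusted p = 0.68) on the brighter probe.

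CTSD, the aspartic protease cathepsin D, had levels of 3.86, 5.30 and 4.94 before feeding, 4.75, 4.92 and 5.71 at 6 h, and 4.33, 4.90 and 4.43 at 24 h. The groups overlapped, with before-feeding replicate 1 the lowest of all arrays. The 6 h difference of 0.43 ± 0.41 was about the size of its error, and it was 0.01 without before-feeding replicate 1.

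CTSF, cathepsin F, had levels of 5.59, 5.85 and 5.53 before feeding, 5.05, 5.83 and 5.15 at 6 h, and 5.11, 5.18 and 5.10 at 24 h. The 24 h arrays were closely grouped and all below the before-feeding arrays, and at 6 h replicate 2 stayed among the before-feeding values. The difference was -0.31 ± 0.28 at 6 h (adjusted p = 0.50) and -0.53 ± 0.28 at 24 h (adjusted p = 0.43), and with spike-in centring the latter was 0.48.

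CTSH, the aminopeptidase cathepsin H, shows how closely readings of one stretch of RNA repeat. Its 2 probes share a run of 31 bases, in capitals here, of 60 each.
CTSH first probe: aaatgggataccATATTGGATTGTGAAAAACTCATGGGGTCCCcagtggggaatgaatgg
CTSH second probe: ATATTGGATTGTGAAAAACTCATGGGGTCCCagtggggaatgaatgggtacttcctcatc
On the first the levels were 2.51, 3.16 and 3.02 before feeding, 3.15, 2.66 and 3.32 at 6 h, and 2.69, 2.97 and 3.27 at 24 h. On the second they were 2.63, 3.25 and 3.20, then 3.24, 2.81 and 3.46, then 2.88, 3.07 and 3.34. The order of the arrays within each group was the same on both, and the groups overlapped throughout. At 6 h the differences were 0.15 ± 0.31 and 0.14 ± 0.30.

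Of the other cathepsin probes none was tested. A second CTSK probe, the CTSL probe, the CTSV probe and a rat-derived cathepsin description with no letter were above background on 0 of 9 arrays. These are probe readings in whole blood and do not show that the genes were silent.

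Of the other hydrolases, NEU1 and PRCP are described, and both had higher means at both times without passing the adjusted threshold. NEU1, the sialidase that removes terminal sialic acids, had levels of 1.02, 0.71 and 0.87 before feeding, 1.41, 1.37 and 2.14 at 6 h, and 1.01, 0.85 and 1.21 at 24 h. Every 6 h array was above every array of the other 2 groups. The difference from before feeding was 0.77 ± 0.29 at 6 h (adjusted p = 0.14) and 0.15 ± 0.29 at 24 h (adjusted p = 0.84).

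PRCP, which cleaves the last residue after a proline, had levels of 0.97, 1.23 and 1.26 before feeding, 1.25, 1.63 and 1.52 at 6 h, and 1.11, 1.48 and 2.60 at 24 h. Most of its 24 h difference of 0.58 ± 0.37 (adjusted p = 0.51) lay in replicate 3, without which it was 0.14.

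**Figure D2:**
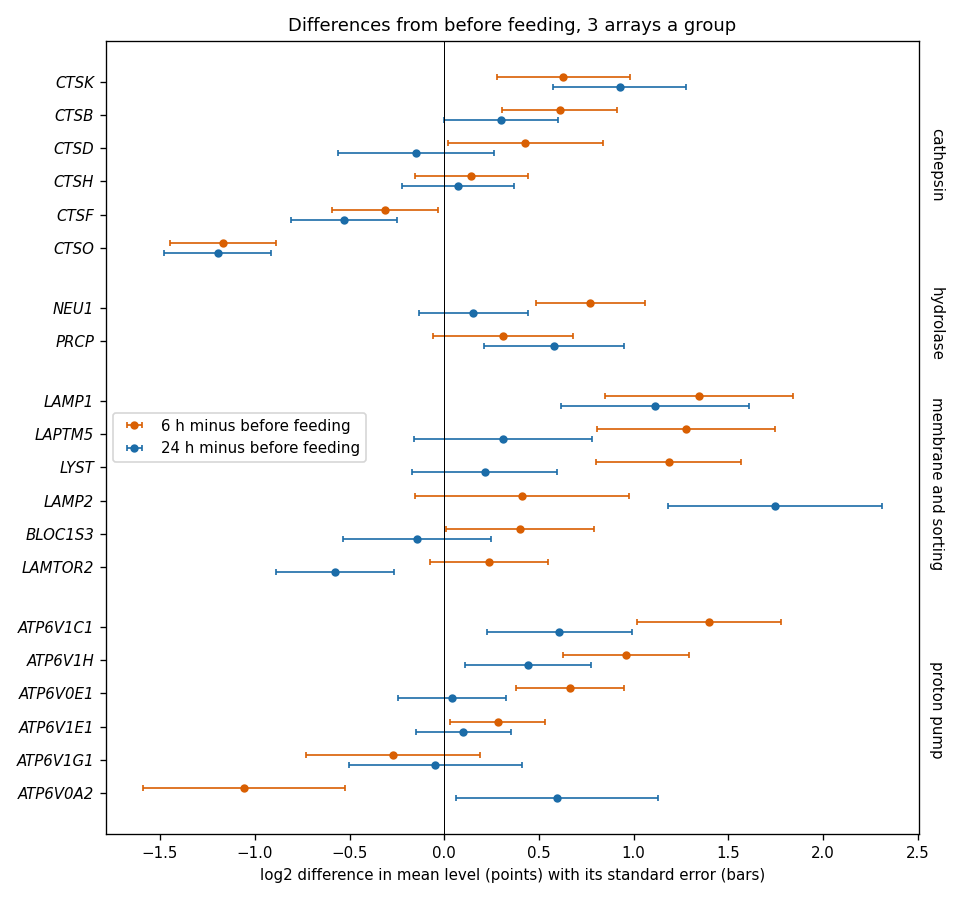
Difference in mean level from before feeding at 6 h (orange) and 24 h (blue) for 20 of the 21 tested genes, on the log2 scale, with bars for limma's SE. ATP6V1C1 stands highest at 6 h at 1.40 and LAMP2 at 24 h at 1.75. The LAMP2 probe was well above background on 2 of its 3 before-feeding arrays. The values of CTSO and ATP6V0A2 at 6 h rest on arrays not well above background.

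The membrane and sorting genes held some of the largest 6 h differences. All 6 tested genes had a higher mean, as did 52.5% of all tested probes. The unadjusted p was under 0.05 for 3 of the 6, as for 3 of the 6 proton pump genes, and for 25.5% of all tested probes. For LAMP2 the sign depends on the probe. The probe that stands for it differed by 0.41 ± 0.56 at 6 h and its other tested probe by -0.07 ± 0.26. LYST, the large vesicle-sorting protein lost in Chediak-Higashi syndrome, had levels of 2.30, 2.25 and 2.29 before feeding, 3.42, 2.71 and 4.26 at 6 h, and 2.08, 2.57 and 2.83 at 24 h. The before-feeding arrays were nearly equal, all 6 h arrays were above them, and the 24 h arrays lay on both sides. The difference was 1.19 ± 0.38 at 6 h (adjusted p = 0.11), and 24 h was below 6 h by -0.97 ± 0.38 (adjusted p = 0.19). Both moved with single arrays: without 6 h replicate 2 they were 1.56 (adjusted p = 0.029) and -1.35 (adjusted p = 0.046), and without 6 h replicate 3 they were 0.79 (adjusted p = 0.33) and -0.57. Of all probes, 12.2% at 6 h and 8.92% at 24 h against 6 h passed the adjusted threshold without 6 h replicate 2.

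LAPTM5, a membrane protein that helps send antigen receptors to the lysosome in blood cells, had levels of 4.40, 5.53 and 5.46 before feeding, 6.32, 5.57 and 7.33 at 6 h, and 5.04, 5.46 and 5.82 at 24 h. The 6 h arrays were above the before-feeding arrays, though 6 h replicate 2 only by a small margin. The difference was 1.28 ± 0.47 at 6 h (adjusted p = 0.14), 1.69 without 6 h replicate 2 (adjusted p = 0.046) and 0.81 without 6 h replicate 3 (adjusted p = 0.41).

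LAMP1, the abundant membrane protein that defines late endosomes and lysosomes, had levels of 0.55, 1.09 and 1.41 before feeding, 2.38, 1.34 and 3.37 at 6 h, and 1.64, 2.01 and 2.74 at 24 h. All 24 h arrays were above those before feeding. At 6 h replicate 2 lay within the before-feeding range. The difference was 1.35 ± 0.50 at 6 h (adjusted p = 0.14), 1.86 without 6 h replicate 2 (adjusted p = 0.036), 0.84 without 6 h replicate 3 (adjusted p = 0.41), and 1.11 ± 0.50 at 24 h (adjusted p = 0.35).

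LAMP2, its paralogue, which also serves in chaperone-mediated autophagy, has 3 probes from different transcript clusters that did not read alike. The first 30 bases of each are shown because they are different stretches, and the descriptions of probes A and B do not tell which transcripts they detect.
LAMP2 probe A: aattcatgtgctttgtgttcagtcttgtgc
LAMP2 probe B: tgatatctaacctatcgatgccttaaagct
LAMP2 probe C: gcggaactcctaattgatatttttaatgta
Probe A read -1.12, -2.83 and -1.11 before feeding, -1.56, -1.54 and -0.73 at 6 h, and -0.16, -0.77 and 1.1 at 24 h. Probe B read -1.05, -1.06 and -1.27, then -1.07, -0.98 and -1.53, then -0.83, -0.77 and -0.77. On both, every 24 h array was above every before-feeding array, but by unequal amounts. Probe A differed by 1.75 ± 0.56 at 24 h (adjusted p = 0.26) and probe B by 0.34 ± 0.26 (adjusted p = 0.57). Probe A was well above background on 2 of the 3 before-feeding arrays, and without before-feeding replicate 2 its 24 h difference was 1.18. Probe C, described as the LAMP2C form, was above background on 1 of 9 arrays, 24 h replicate 3, and was not tested. On probe A 24 h was above 6 h by 1.34 ± 0.56 (adjusted p = 0.21). With normexp probe A differed by 0.79 at 24 h against before feeding and by 0.71 against 6 h.

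LAMTOR2, a scaffold subunit that anchors mTORC1 signalling to the lysosome, had levels of 4.81, 4.84 and 4.56 before feeding, 4.50, 5.09 and 5.34 at 6 h, and 3.83, 4.08 and 4.57 at 24 h. The 24 h arrays were mostly the lowest, with replicate 3 reaching the lowest before-feeding value. The difference was -0.58 ± 0.31 at 24 h against before feeding (adjusted p = 0.44), which turned to 0.43 with spike-in centring, and -0.81 ± 0.31 against 6 h (adjusted p = 0.18).

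BLOC1S3, a subunit of the complex that builds lysosome-related organelles, had levels of -0.10, 0.78 and 0.21 before feeding, 0.93, 0.70 and 0.47 at 6 h, and 0.50, 0.66 and -0.69 at 24 h. The groups overlapped, and the 6 h difference was 0.40 ± 0.39. A BLOC1S2 probe was above background on 2 of 9 arrays and was not tested.

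The proton pump is represented by 6 tested genes, of which 4 had a higher and 2 a lower mean at 6 h. ATP6V1C1 encodes subunit C, which joins the V1 ring to the rest of the pump and is lost when the pump disassembles. It had the largest 6 h difference of the members and 2 tested probes on different stretches. The 30 bases shown for the brighter hold AATAAA, the letters of the usual polyadenylation signal, in capitals, and the other is shown by its first 30.
ATP6V1C1 brighter probe: cccacaggagagAATAAAattacctgtgca
ATP6V1C1 other probe: ataaacagcgtttcagtgggatatggctaa
AATAAA is in 3 of the 35 member probes (8.57%) and in 12.1% of all 43603 probes, read on the strand given.

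The brighter ATP6V1C1 probe read 1.23, 0.87 and 1.31 before feeding, 2.35, 1.92 and 3.35 at 6 h, and 1.54, 1.53 and 2.17 at 24 h. The other read -2.26, -1.44 and -1.53, then -0.62, -0.72 and 0.53, then -1.06, -1.04 and -0.60. On both, all arrays after azide were above all before it, and 6 h replicate 3 was the highest. Differences at 6 h were 1.40 ± 0.38 (adjusted p = 0.086) and 1.47 ± 0.38 (adjusted p = 0.081) or 2.64-fold and 2.77-fold. At 24 h they were 0.61 ± 0.38 (adjusted p = 0.50) and 0.84 ± 0.38 (adjusted p = 0.37). Without 6 h replicate 2 the brighter probe differed by 1.71 at 6 h (adjusted p = 0.029), and without 6 h replicate 3 by 0.99 (adjusted p = 0.25).

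ATP6V1H encodes subunit H, a regulator of V1 that is needed for pump activity. Its brighter probe read 2.90, 3.01 and 3.42 before feeding, 3.69, 3.89 and 4.62 at 6 h, and 3.26, 3.41 and 3.98 at 24 h. The other read -3.07, -2.32 and -2.47, then -1.79, -2.08 and -0.47, then -2.47, -2.78 and -0.98. All 6 h arrays were above the before-feeding arrays on both probes, while the 24 h arrays overlapped them. Differences at 6 h were 0.96 ± 0.33 (adjusted p = 0.13) and 1.18 ± 0.53 (adjusted p = 0.20), the second from a probe above background on 1 before-feeding array.

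ATP6V0E1 encodes a small membrane subunit of the V0 ring. Its levels were 5.15, 5.38 and 5.22 before feeding, 5.54, 5.84 and 6.35 at 6 h, and 5.07, 5.35 and 5.45 at 24 h. The 6 h arrays were above all others. The difference from before feeding was 0.66 ± 0.28 at 6 h (adjusted p = 0.18), and 0.31 under quantile normalization. A second ATP6V0E1 probe was above background on 0 of 9 arrays.

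ATP6V0A2 encodes an isoform of the large V0 subunit that forms the proton path. Its levels were -1.21, -3.13 and -1.68 before feeding, -3.46, -2.40 and -3.34 at 6 h, and -1.92, -1.72 and -0.59 at 24 h. The probe was above background on 2 arrays before feeding, on 0 at 6 h and on all 3 at 24 h. It was tested only through the 24 h group, where it is high, so its differences support nothing. Before-feeding replicate 2 lay among the 6 h values, and no fold is given between those groups. With the scanner's own background subtraction 24 h was at least 2.72-fold above 6 h with no overlap, while with normexp that difference was 0.22 on the log2 scale.

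ATP6V1E1 and ATP6V1G1 are subunits of the stalks that hold V1 in place. ATP6V1E1 had levels of 3.54, 3.36 and 3.68 before feeding, 3.64, 3.73 and 4.06 at 6 h, and 3.65, 3.60 and 3.64 at 24 h. ATP6V1G1 had levels of 4.60, 3.00 and 3.59, then 2.83, 4.08 and 3.46, then 3.41, 3.43 and 4.21. Both overlapped between groups, and before-feeding replicates of ATP6V1G1 spread more than its group means differed. The 6 h difference of ATP6V1E1 was 0.28 ± 0.25 (adjusted p = 0.49).

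**Figure D3:**
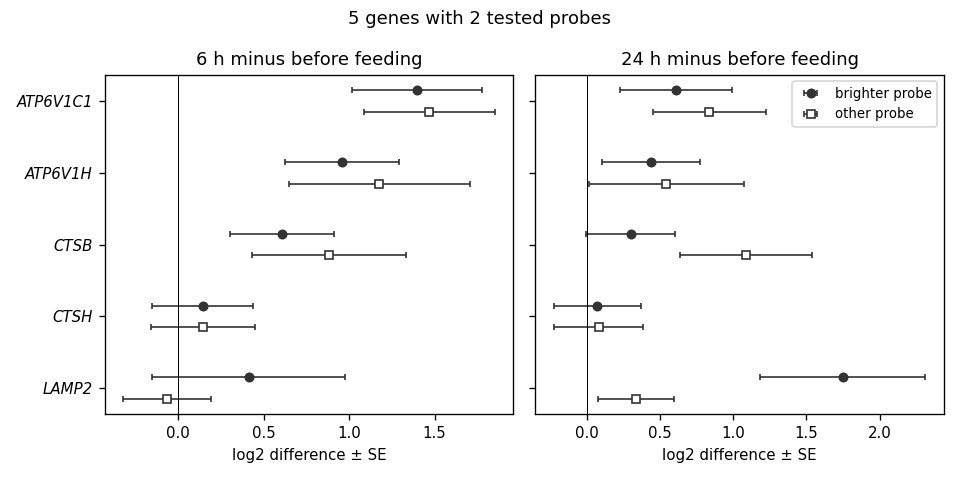
Log2 difference from before feeding, with limma's SE as bars, for 5 genes with 2 tested probes, at 6 h (left) and 24 h (right); filled points are the brighter probe. The probes of CTSH and ATP6V1C1 lie close together at 6 h, and those of LAMP2 are 1.75 and 0.34 at 24 h.

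The 6 h differences were uneven over the arrays. The median over the 21 genes, each taken from its own before-feeding mean, was 0.00, -0.03 and 0.15 on the before-feeding arrays, 0.21, 0.35 and 0.92 at 6 h, and -0.03, 0.27 and 0.55 at 24 h. Replicate 3 was the highest array at both later times. The highest of all 9 levels was on 6 h replicate 3 for 12 genes (57.1%), against 26.1% of all tested probes, and on 24 h replicate 3 for 5 (23.8%), against 15.5%. Without 6 h replicate 3 the median difference at 6 h was 0.38.

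Markers of blood cell types are given beside these values. The same median over 7 of 13 monocyte markers with a tested probe was -0.22, 0.06 and 0.16 before feeding, 1.78, 1.00 and 2.59 at 6 h, and -0.12, 0.42 and 1.11 at 24 h. Over 4 of 18 neutrophil markers it was -0.35, 0.46 and 0.03, then 1.77, 1.25 and 2.69, then 0.91, 0.76 and 0.20. Over 9 of 15 T cell markers it was -0.12, -0.16 and 0.15, then -0.68, -0.36 and -1.34, then -0.16, -0.03 and 0.12.

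The monocyte and neutrophil lists were highest, and the T cell list lowest, on 6 h replicate 3, where the lysosomal genes were highest too. Elsewhere the orders differed in part. At 6 h the lysosomal median was lowest on replicate 1 and both myeloid lists on replicate 2. By role, the membrane and sorting genes (0.89, 0.38 and 1.47 at 6 h) were also lowest on replicate 2. The cathepsins, other hydrolases and proton pump genes were lowest on replicate 1. At 24 h the lysosomal genes and the monocyte list were both lowest on replicate 1 and highest on replicate 3, while replicate 3 was lowest for the neutrophil list. At 6 h the median of the 7 monocyte markers differed by 1.92, with 6 higher (2 of them by under 0.7) and 1 lower. CD14, the defining marker, differed by 2.55 ± 0.58, while CD68, itself a lysosomal membrane protein, and AIF1 differed by -0.04 ± 0.28 and 0.01 ± 0.43. Over 2 NK cell markers the median was -1.24, over 4 platelet markers 0.32, and 1 B cell and 1 red cell marker differed by -0.13 and -0.30. Whole blood is a mixture, so a change in the number of cells of a type and a change in RNA per cell cannot be told apart. The part of cell make-up in the lysosomal values was not tested.

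**Figure D4:**
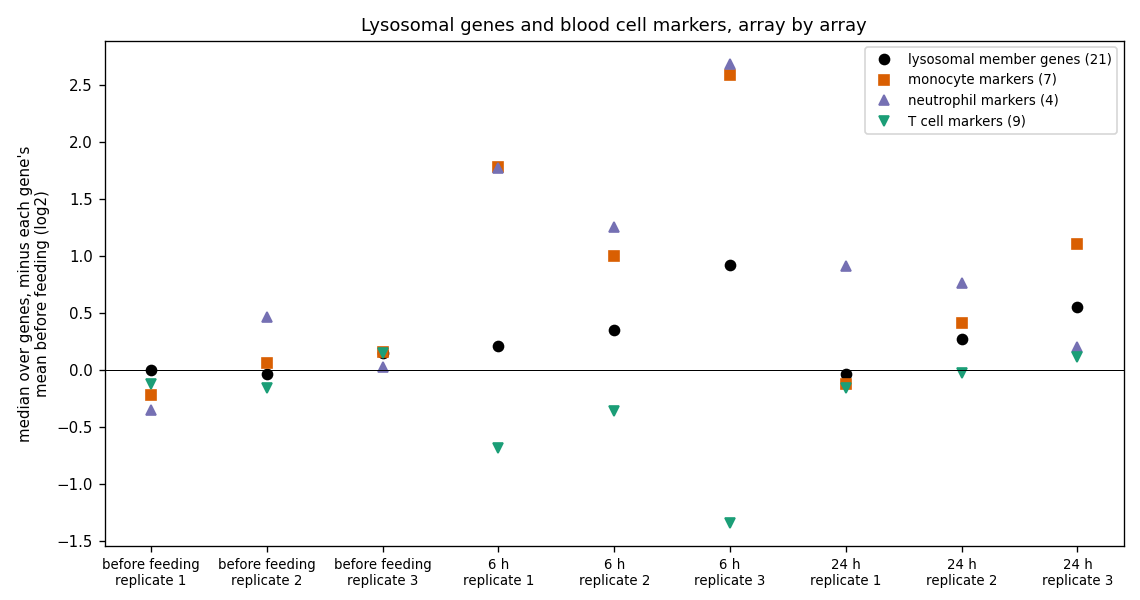
Median over genes of the level minus each gene's before-feeding mean, on the log2 scale, for the 21 lysosomal genes and 3 lists of blood cell markers, array by array. At 6 h the lysosomal genes lie at 0.21 to 0.92, the monocyte markers at 1.00 to 2.59 and the T cell markers at -1.34 to -0.36.

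Other genes of the pathway, taken from lists, had no gene past the adjusted threshold in any comparison. Of 42 other hydrolases and cofactors, 10 were tested; at 6 h 5 had a higher and 5 a lower mean, with a median of 0.03. Named by smallest p, ACP5, the tartrate-resistant phosphatase, differed by -0.69 ± 0.36 at 6 h and -0.73 ± 0.36 at 24 h, and ASAH1, acid ceramidase, by 0.86 ± 0.45 at 24 h. Without 24 h replicate 3 the ASAH1 difference was 0.34. ARSA, arylsulfatase A, differed by 0.54 ± 0.30 at 6 h.

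Of 24 other membrane and transport proteins, 7 were tested, 4 higher and 3 lower at 6 h. SLC11A1 (NRAMP1), a metal transporter of phagocyte lysosomes, had levels of 2.57, 3.39 and 3.12 before feeding, 4.48, 3.36 and 5.69 at 6 h, and 2.71, 2.93 and 3.88 at 24 h. At 6 h replicates 1 and 3 were high and replicate 2 lay among the before-feeding arrays, with a difference of 1.48 ± 0.54 (adjusted p = 0.14), 2.06 without 6 h replicate 2 (adjusted p = 0.034) and 0.90 without 6 h replicate 3 (adjusted p = 0.41). NPC1, which exports cholesterol, differed by 0.93 ± 0.39 at 6 h (adjusted p = 0.17), with no overlap. GPNMB, a glycoprotein of macrophage lysosomes, differed by 0.99 ± 0.34 at 24 h (adjusted p = 0.28), with no overlap.

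Of 14 other pump subunits only ATP6V1A, the catalytic subunit of V1, had a named probe. Its levels were -1.70, -1.93 and -1.55 before feeding, -0.64, -0.83 and 0.21 at 6 h, and -1.10, -1.02 and -0.16 at 24 h. All arrays after azide were above those before, with 1.31 ± 0.36 at 6 h (adjusted p = 0.087) and 0.97 ± 0.36 at 24 h (adjusted p = 0.30). Without 6 h replicate 2 the 6 h difference was 1.51 (adjusted p = 0.040), without 6 h replicate 3 it was 0.99 (adjusted p = 0.27), and with normexp it was 0.51 (adjusted p = 0.23).

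Of 14 listed protease inhibitors 4 were tested, all 4 with a higher mean at 6 h and all 4 with a lower one at 24 h than at 6 h. Of all tested probes 52.5% had a higher mean at 6 h, and 43.7% a higher one at 24 h than at 6 h. The 6 h differences of CST3 (0.03 ± 0.29) and ITIH4 (0.51 ± 0.82) were smaller than their SE. At 6 h 2 of the 4 had an unadjusted p under 0.05, against 25.5% of all tested probes. SLPI, a secreted protease inhibitor, had levels of 2.92, 3.61 and 3.17 before feeding, 4.08, 4.73 and 5.65 at 6 h, and 2.56, 3.45 and 4.03 at 24 h. The 6 h arrays were above all others, by 1.59 ± 0.46 against before feeding (adjusted p = 0.094). CSTB, a cytosolic inhibitor of cathepsins, differed by 0.69 ± 0.30 at 6 h (adjusted p = 0.18). CST3, cystatin C, differed by -0.68 ± 0.29 at 24 h against before feeding (adjusted p = 0.34), a sign that turned with spike-in centring (0.33).

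Of 31 genes that sort proteins to the lysosome 9 were tested, 6 higher and 3 lower at 6 h, with a median of 0.22. SORT1, the sorting receptor sortilin, differed by -0.56 ± 0.25 at 6 h (adjusted p = 0.19) with no overlap. AP1S1, an adaptor subunit, differed by -0.55 ± 0.31 at 6 h, and HPS1, a sorting factor of lysosome-related organelles, by 0.54 ± 0.33. Of 22 regulators of lysosome genes 3 were tested. MITF, a transcription factor related to TFEB, differed by 1.08 ± 0.38 at 6 h (adjusted p = 0.13), with no overlap, and by 0.88 ± 0.38 at 24 h (adjusted p = 0.35). MTOR, the kinase that restrains it, differed by 0.49 ± 0.29 at 6 h, and BECN1, an autophagy factor, by -0.64 ± 0.30 at 24 h. The MTOR difference was 0.08 with normexp and 0.21 without before-feeding replicate 1.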

How the data were processed

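RNA from whole blood was labelled with Cy3 from 0.5 µg and hybridised to 1-colour Agilent arrays, per the labels' protocols. Feature Extraction was used, version 10.5.1.1 per the file headers but 9.5.3.1 per the submitters' processing notes. The deposited scanner files hold processed intensity, background-subtracted per the file headers, and the deposited series-wide values hold intensity made by steps not given in the sources used here.

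Control and outlier spots were left out, spots of a probe averaged, and 7 of 43603 probes dropped. Values are log2 processed signal minus the array's 75th percentile. The 9 arrays entered 1 limma fit (3.58.1, R 4.3.3) with group as the term (residual degrees of freedom 6, prior 4.6); the script was checked on simulated data, and the adjusted threshold was 0.05. Members and lists were chosen with earlier results of these data known. Of the tested member genes, 20 of 21 are named, the values of the other being not reported here, and up to 3 genes per list by smallest unadjusted p; a difference is printed mainly where it exceeds its SE. Probe sequences are from the scanner files, gene names from descriptions and RefSeq (Sscrofa11.1). Promoter motifs were not searched and positions are not analysed here. Python 3.11.15, pandas 2.3.3 and matplotlib 3.10.9 joined files and drew plots.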

Additional observations from a re-analysis of the deposited data

How the results depend on the processing

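Recomputed settings were quantile, median and spike-in scaling, normexp background, the deposited series-wide values, other filters, trend and robust moderation, only the arrays compared, a replicate block, the mean over a gene's probes and leaving out each array. The median over member genes stayed positive at 6 h and at 24 h against before feeding under all of them.

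The number of member probes called at 6 h was 0 in the reported fit. It was 1 with spike-in centring, beside 615 of all probes (3.11%), and 2 with the replicate block, beside 604 (3.05%). When leaving out an array it ranged from 0 to 6. The 6 (5 higher, 1 lower) came without 6 h replicate 2, where 2407 of all 19783 probes were called (1439 higher, 968 lower). At 24 h against 6 h the member count ranged from 0 to 1 when leaving out an array. The 1 was LYST without 6 h replicate 2, where 1764 of all 19783 probes (8.92%) were called. With spike-in centring the median difference of all tested probes shifted to 0.27 at 6 h, 0.99 at 24 h and 0.69 between them; 18 member probes and 5824 of all probes (29.4%) were then called at 24 h, and the members' median was 1.22 there and 0.55 at 24 h against 6 h. The latter was 0.12 under quantile normalization.

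Over 57 single-gene differences and 1073 alternatives, 9 turned in sign and 25 passed the threshold that the reported fit did not. Under some setting 51 of the 57 moved by over 1.5 times, 35 of them with spike-in centring, 27 with normexp, 12 with the deposited values, 11 under quantile normalization and 11 without 6 h replicate 3. With spike-in centring those at 24 h against before feeding became 0.48 for CTSF, 0.43 for LAMTOR2, 0.33 for CST3, 0.27 for ACP5, 0.37 for BECN1 and 0.40 for AP1S1, and those at 24 h against 6 h 0.066 for CST3 and 0.088 for ARSA. ATP6V0A2 at 24 h became -0.051 with normexp. Causes were not tested.

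Equal replicate numbers did not deviate together throughout: correlations of their deviations ran from -0.20 to 0.64, so the block was not used. Under it 604 probes were called at 6 h, both ATP6V1C1 probes among them. With 3 arrays a group, and several members near background, small differences were not detectable.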

Other observations

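A few probes that the description rule did not take also carry bases of member probes. One, to a pig cDNA, shares a run of 54 bases with the brighter ATP6V1C1 probe and read 1.06, 0.71 and 1.21 before feeding, 2.24, 1.78 and 3.28 at 6 h, and 1.44, 1.40 and 2.04 at 24 h. It followed that probe's order array by array, with a 6 h difference of 1.44 beside 1.40, and counts as a repeat reading of one stretch of RNA rather than a further gene. A probe from another transcript cluster shares 22 bases with the CTSF probe. It was well above background on 5 of 9 arrays, and its 6 h levels of -4.08, -4.03 and -5.32 lay under the dimmest signal that cleared the background on those arrays (-2.97, -2.59 and -3.20), so no difference is given. Whether it detects CTSF RNA was not tested. No other probe shared a run of 20 bases with a member on either strand, apart from the CTSH pair.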
